A study of Mus musculus with 3 samples.

Results

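The 8 loci described here belong to genes that carry glucose into the cell, break it down to pyruvate, and steer pyruvate towards lactate. They are Slc2a1, Hk2, Aldoa, Tpi1, Pgam1, Eno1, Ldha and Pdk1. Each was represented by 1 interval of 80 to 120 kb in mouse build mm9, 740 kb in all, and its members were the HIF1A peaks whose summit lay in the interval. There were 18 such peaks, 9 of the 3055 in the list of replicate 1 and 9 of the 2680 in the list of replicate 2. The lists come from chromatin immunoprecipitation and sequencing (ChIP-seq) of HIF1A in melan-Ink4a-Arf-null, an immortalized mouse melanocyte line derived from Cdkn2a tm1RDp/tm1RDp mice. All samples were grown with 10% serum, 200 nM of the phorbol ester 12-O-tetradecanoylphorbol 13-acetate and 200 pM cholera toxin, and were held in 1% oxygen for 24 hours before crosslinking. The samples were 2 ChIP samples, precipitated with the HIF1A antibody AF1935, and 1 input without antibody. No sample kept at normal oxygen was analysed here, so the values show where HIF1A peaks were called under low oxygen and not how that changed with oxygen. A single cell line was used, and the labels do not name the 2 ChIP samples as separate cultures, so their spread may be technical only.

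HIF1A is the subunit of hypoxia-inducible factor 1 whose amount oxygen controls. When oxygen is scarce it is no longer degraded, pairs with ARNT and binds DNA at a short core, ACGTG or GCGTG. Genes of glucose uptake and glycolysis are among its best-known targets in many cell types, and their induction lets cells make ATP with less respiration. Melanocytes reside in skin, a tissue with low oxygen tension.

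The core can be looked for in the promoters of these genes, although the sequence under the peaks themselves cannot be shown, for want of an mm9 genome. RefSeq promoter windows (build GRCm38.p6), matched by symbol for all 8 genes, gave 14 annotated starts, and the 250 bases before each start were searched for ACGTG and GCGTG on both strands. CACGTG reads as ACGTG on both strands and was counted as 2 overlapping matches. The core was found before 11 of the 14 starts and in 7 of the 8 genes, with Tpi1 the exception. Of 32851 windows of the same length in the table, 38.6% held either form, 16.6% held ACGTG and 28.2% held GCGTG. The core contains CG, so windows with at least 10 CG pairs form a closer background: 64.2% of those 12417 windows held it, as did 9 of the 10 member windows of this kind. Windows of Aldoa and of Eno1 overlap for 2 pairs of starts and hold the same matches. With these merged, 9 of 12 stretches had the core, and 7 of the 8 with at least 10 CG pairs. Background shares were computed per window only, so the counts of genes and of merged stretches have no like background. Windows from 6 genes are printed 5′ to 3′ on the coding strand, for the first start listed of each. Among the first starts these include the windows with the most matches, Ldha and Pgam1, and the Tpi1 window with none. The window of the first Aldoa start, not printed, also held none. Capitals mark every match on either strand (CACGT and CACGC are the cores on the other strand). Positions are those of GRCm38.p6 and must not be laid over the mm9 peak positions. Whether a peak covers a match was not determined.

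Slc2a1, chr4:119108495-119108744, plus strand: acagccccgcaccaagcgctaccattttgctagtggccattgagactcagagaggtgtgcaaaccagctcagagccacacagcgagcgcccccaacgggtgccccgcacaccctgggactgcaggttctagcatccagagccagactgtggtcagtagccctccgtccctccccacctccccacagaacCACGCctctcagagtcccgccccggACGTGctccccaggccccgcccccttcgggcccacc

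Hk2, chr6:82774455-82774704, minus strand: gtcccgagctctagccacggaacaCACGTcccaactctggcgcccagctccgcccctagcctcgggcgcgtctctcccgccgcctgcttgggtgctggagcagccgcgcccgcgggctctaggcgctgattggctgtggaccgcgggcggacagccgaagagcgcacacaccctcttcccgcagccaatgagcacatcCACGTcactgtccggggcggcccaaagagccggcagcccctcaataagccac

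Tpi1, chr6:124814159-124814408, minus strand: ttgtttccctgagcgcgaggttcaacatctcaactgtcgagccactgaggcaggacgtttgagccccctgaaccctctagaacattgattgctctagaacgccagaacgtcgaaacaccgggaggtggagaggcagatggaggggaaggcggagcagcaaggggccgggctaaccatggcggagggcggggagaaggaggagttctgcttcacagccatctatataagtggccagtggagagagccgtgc

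Pgam1, chr19:41911621-41911870, plus strand: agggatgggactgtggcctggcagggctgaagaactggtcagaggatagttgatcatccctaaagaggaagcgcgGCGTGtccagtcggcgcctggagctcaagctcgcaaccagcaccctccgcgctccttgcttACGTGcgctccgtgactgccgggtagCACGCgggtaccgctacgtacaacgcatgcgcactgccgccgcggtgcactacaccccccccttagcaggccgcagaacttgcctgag

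Ldha, chr7:46845554-46845803, plus strand: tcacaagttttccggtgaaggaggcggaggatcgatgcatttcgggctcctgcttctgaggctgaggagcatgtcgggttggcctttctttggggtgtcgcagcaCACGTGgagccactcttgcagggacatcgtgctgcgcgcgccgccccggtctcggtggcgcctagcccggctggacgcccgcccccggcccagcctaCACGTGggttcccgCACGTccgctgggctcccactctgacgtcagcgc

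Pdk1, chr2:71872974-71873223, plus strand: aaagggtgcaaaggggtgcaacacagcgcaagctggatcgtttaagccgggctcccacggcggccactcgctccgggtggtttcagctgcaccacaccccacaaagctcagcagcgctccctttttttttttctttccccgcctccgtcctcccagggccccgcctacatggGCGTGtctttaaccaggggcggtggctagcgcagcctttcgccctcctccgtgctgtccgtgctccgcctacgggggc

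Ldha had the most matches, with CACGTG beginning 145 and 48 bases before the start and a further ACGTG on the opposite strand from 34 bases before it. Pgam1 had 3 separate matches, beginning 175, 114 and 88 bases before the start. Slc2a1 and Hk2 had 2 each. Pdk1 had a single GCGTG, 78 bases before its first start, and none before its second. For Eno1, whose windows are not printed, each of the 3 annotated starts had GCGTG and none had ACGTG, while 2 of the 3 Aldoa starts had ACGTG. A match is a description of letters and no evidence of binding, and a window without one says nothing of the factor.

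Every one of the 8 intervals held a peak in both lists, and in every one a peak of replicate 1 overlapped a peak of replicate 2. No interval lacked a peak. As background, 3.39% of the 26232 tiles of 100 kb along the mouse chromosomes (exact 95% binomial interval 3.17 to 3.61%) held a summit of both lists, 6.73% a summit of replicate 1 and 4.12% a summit of replicate 2. The tiles include stretches with few genes, and a background of gene-bearing tiles was not computed. In 6 intervals there was exactly 1 peak per list, and the Aldoa and Tpi1 intervals each held an additional peak in 1 list. Of the 9 peaks in each list, 8 shared at least 1 bp with a peak in the other list (88.9%, exact 95% interval 51.8 to 99.7%). Among all peaks this held for 58.1% of replicate 1 and 72.2% of replicate 2, and among autosomal peaks outside packed windows (stretches of 1 Mb in which either list has 8 peaks or more) it was 43.5% and 78.4%. None of the 18 peaks lay in a packed window. The interval on 9 peaks treats peaks of 1 library as independent and is no test against these shares. The same 8 pairs give the count in both lists. The caller used 1 control library for both lists, and its part in the overlap was not tested. The loci were chosen with the lists known, so the counts describe these loci and test nothing. Summits lay 14.1 to 42.9 kb inside the interval edges.

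A peak is named below for its interval and is not assigned to a gene by position. In the GRCm38 gene table, stretches as wide as the intervals around these genes also hold other protein-coding genes, except around Hk2. There were 7 around Aldoa, 6 around Tpi1, 4 around Pgam1 (Rrp12, Exosc1, Zdhhc16 and Mms19), 3 around Ldha (Gtf2h1, Tsg101 and the related Ldhc) and 2 around Eno1 (Car6 and Rere). Slc2a1 and Pdk1 each had 1, Zfp691 and Itga6.

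Peak values below are the authors' own. Tags are ChIP reads in the peak as the caller counted them, and whether duplicates were left out of the count was not determined. Fold is enrichment over the caller's local background, and the p-based score is 10 times the -log10 p-value. They rank a peak within its list. The lists differ in depth (94716495 and 103139204 tags in total, 76075544 and 86978508 of them unique). They also differ in the fragment size the caller estimated (68 and 53 bp). For both reasons the paired values are set side by side and not tested against each other. The labels give fragments of 200 to 500 bp, above both estimates. What the low estimates do to summit positions and tag counts was not examined. Intervals on tags are exact 95% Poisson intervals, which cover counting error only.

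Glucose entry and trapping come first. Slc2a1 encodes GLUT1, the transporter that brings glucose across the plasma membrane. Its single peak on chromosome 4 was called at 118781070 to 118782030 in replicate 1, and replicate 2 had it at 118781165 to 118782082. It held 205 tags (178 to 235) at 4.68-fold in replicate 1 and 223 tags (195 to 254) at 4.18-fold in replicate 2. Both folds lay below the median of their list, which was 5.32 and 5.68. By tags, however, the peak ranked 487th of 3055 and 287th of 2680. The next summit of the same list was 306 kb away in both.

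Hk2 encodes hexokinase 2, which phosphorylates glucose and so holds it in the cell. The peak on chromosome 6 spanned 82723393 to 82725241 in replicate 1, the longest of the 18 at 1849 bp, and 82724319 to 82725143 in replicate 2, at 825 bp. It contained 368 tags (331 to 408) at 4.80-fold and 195 tags (169 to 224) at 3.81-fold in replicates 1 and 2. The longer call of replicate 1 reached out on the side of lower coordinates, and the summits were still only 42 bp apart. A peak of both lists with fewer tags lay just outside the interval, 11.9 kb past its upper edge in replicate 1, with 69 tags at 5.06-fold there and 79 tags at 3.99-fold in replicate 2. Its fold was slightly above that of the Hk2 peak in each list.

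Of the enzymes that split the sugar, Aldoa encodes aldolase A and Tpi1 encodes triosephosphate isomerase, and these were the loci with the least clear signal. The Aldoa interval on chromosome 7 held 2 peaks in replicate 1. The first, at 133942256 to 133943307, had 211 tags (183 to 241) at 3.99-fold and overlapped no peak of replicate 2, whose nearest summit was 9868 bp away. The second, at 133952433 to 133953009, had 97 tags (79 to 118) at 4.21-fold and was matched in replicate 2 by a peak at 133952494 to 133952892 with 71 tags (55 to 90) at 4.59-fold. Thus the Aldoa peak richer in tags was the one seen in 1 list alone. The paired peak ranked 1653rd and 2462nd by p-based score in replicates 1 and 2, the lowest of the 8 pairs in each. In the gene table Ppp4c and Tlcd3b stand next to Aldoa.

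At Tpi1, on chromosome 6, the paired peak was at 124762868 to 124764343 in replicate 1, while replicate 2 had the shorter call 124763357 to 124764013. Tags numbered 296 (263 to 332) at 4.51-fold in replicate 1 and 152 (129 to 178) at 2.93-fold in replicate 2. The latter was the lowest fold of the 18 peaks, rank 2614 of 2680. Replicate 2 alone had a narrow second peak, 118 bp from 124734070 to 124734187, with 27 tags (18 to 39) at 7.39-fold. Its distance to the nearest summit of replicate 1 was 25961 bp.

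By p-based score, the strongest peak in or within 50 kb of any interval lay outside the Tpi1 one, 11.8 kb below its lower edge in replicate 1. It covered 124707663 to 124708757 with 613 tags at 15.32-fold in replicate 1, and 124707840 to 124708634 with 379 tags at 7.99-fold in replicate 2. Its p-based score ranked 29th and 41st in the lists. Eno2, the gene of the enolase of neurons and another enzyme of the pathway, is among the 10 protein-coding genes on either side of Tpi1 in the GRCm38 table. To which gene the peak is closest was not determined.

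The intervals of Pgam1 and Eno1, of lower glycolysis, held the paired peaks of highest fold in both lists. Pgam1 encodes phosphoglycerate mutase 1, which moves the phosphate group of the intermediate that enolase then acts on. The peak on chromosome 19 covered 41985736 to 41986877 in replicate 1, and in replicate 2 it covered 41985869 to 41986637. It had the highest fold of the paired peaks in both lists. There were 353 tags (317 to 392) at 11.56-fold in replicate 1 and 288 tags (256 to 323) at 8.34-fold in replicate 2. It was an isolated site, with the next summit of its own list 868 kb away in replicate 1 and 1756 kb away in replicate 2.

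Eno1 encodes enolase 1, which makes phosphoenolpyruvate. Its chromosome 4 peak spanned 149610510 to 149611670 in replicate 1 and 149610550 to 149611423 in replicate 2. At 464 tags (423 to 508) and 348 tags (312 to 387) it had the most tags of the 8 loci in both lists, with folds of 10.12 and 7.09. Its p-based score of 1135.86 in replicate 1 was the highest of the 9 peaks there, and in replicate 2 the score of 734 came second to the 781.05 of Pgam1. Pgam1 and Eno1 ranked 105th and 76th by this score in replicate 1, and 66th and 75th in replicate 2.

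The fate of pyruvate is set at the last 2 genes. Ldha encodes the A subunit of lactate dehydrogenase, which turns pyruvate into lactate and restores the NAD+ that glycolysis uses. Its peak on chromosome 7 was called at 54100561 to 54102004 in replicate 1, and at 54100811 to 54101674 in the other list. It held 420 tags (381 to 462) at 6.15-fold and 274 tags (243 to 308) at 4.33-fold in the respective replicates, above the median fold of the list in replicate 1 and below it in replicate 2. A separate peak of both lists lay 8.52 kb below the lower edge of the interval in replicate 1, with 209 tags at 5.83-fold there and 137 tags at 3.04-fold in replicate 2.

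Pdk1 encodes pyruvate dehydrogenase kinase 1, which inhibits entry of pyruvate into the citric acid cycle. On chromosome 2 its peak spanned 71710830 to 71712162 in replicate 1 and 71711032 to 71712023 in replicate 2. Tags came to 407 (368 to 449) at 7.90-fold in replicate 1 and 325 (291 to 362) at 6.28-fold in replicate 2, above the list's median fold both times. The summits were 17 bp apart, the closest of the 8 pairs.

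**Figure D1:**
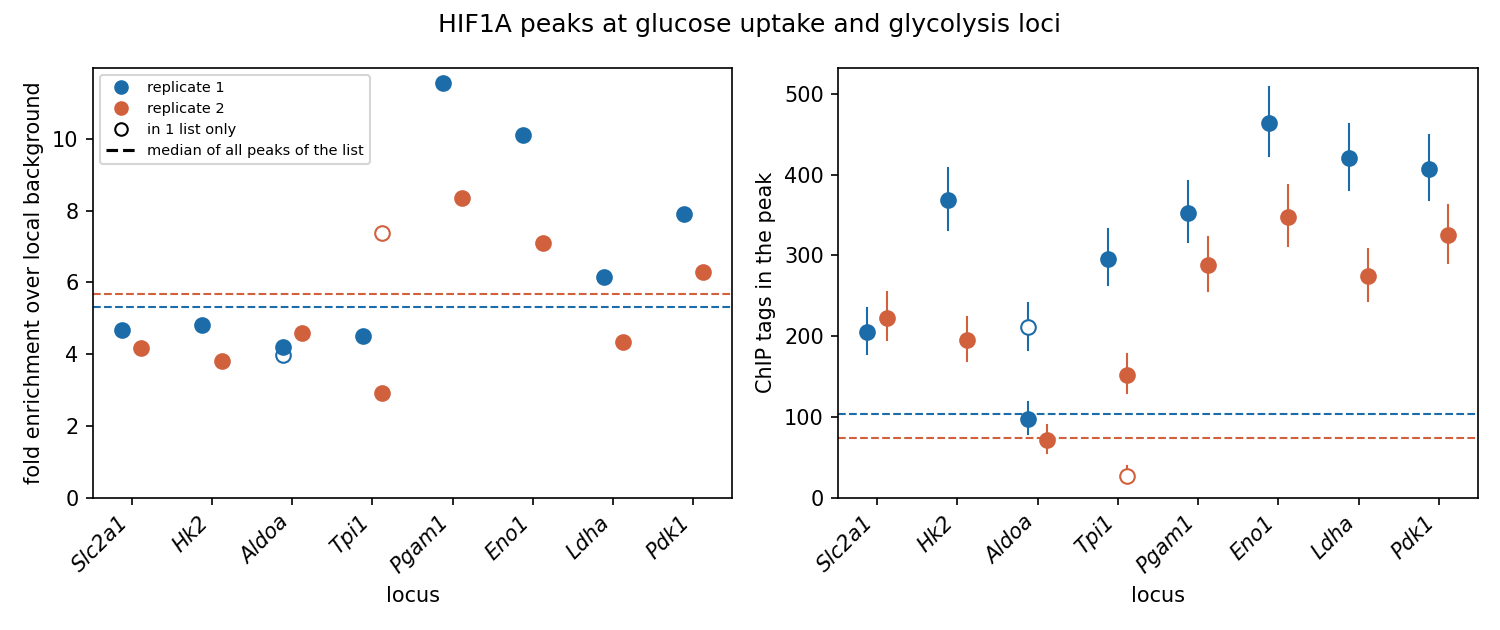
Fold enrichment (left) and ChIP tags with exact 95% Poisson intervals (right) of the 18 peaks by locus, with replicate 1 in blue, replicate 2 in orange and open circles for peaks in 1 list only. Dashed lines are the medians of all peaks of each list. The Pgam1, Eno1 and Pdk1 pairs lie above both fold medians, whereas 7 of the 8 loci have a paired peak above the tag medians in both lists.

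The order of the loci recurred in the other list to differing degrees. Across the 8 pairs Spearman's rho between replicates was 0.98 for the p-based score, 0.79 for tags and 0.74 for fold. These are descriptions over 8 loci that share 2 libraries and a control. The order by score in replicate 1 was Eno1, Pgam1, Pdk1, Ldha, Slc2a1, Hk2, Tpi1 and Aldoa, and in replicate 2 the sole change was that Pgam1 preceded Eno1. With tags, neighbouring loci often could not be separated within a list: in replicate 1 the counting intervals of Ldha, Pdk1, Hk2 and Pgam1 overlapped one another.

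Summits of the 8 pairs lay 17 to 86 bp apart, with a median of 41 bp (quartiles 33.8 and 46.2 bp). Over all 1742 pairs of the lists the median was 25 bp (7 and 92.8 bp), and over the 797 outside packed windows it was 26 bp. The pair farthest apart was Eno1. At 7 of the 8 loci the replicate 2 peak lay wholly inside the replicate 1 peak. This held for 60.4% of all pairs and for 68.5% of those outside packed windows. Slc2a1 was the locus where it did not, and there the 2 calls were nearly equal in length, at 961 and 918 bp.

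**Figure D2:**
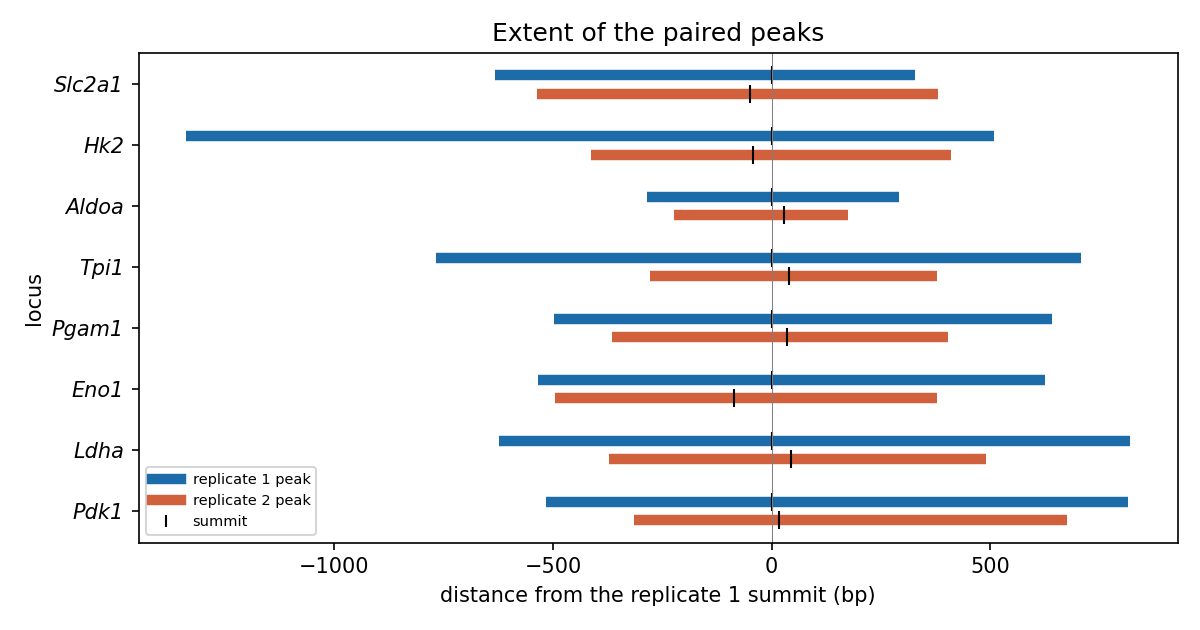
Extent of the paired peak at each locus in replicate 1 (blue) and replicate 2 (orange), as distance in bp from the replicate 1 summit, with black ticks for the summits. All 8 pairs of summits are within 86 bp, and the replicate 2 peak is the shorter at every locus. Peaks of replicate 2 were also shorter over the whole lists, with a median of 366 bp against 559 bp. The share of all pairs with a shorter replicate 2 peak was not computed.

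Compared with the rest of their lists, the peaks at these loci were long and rich in tags, but their median fold was below that of the list. Tags are counted over the whole peak, so length and tags are not separate measures. The 9 peaks of replicate 1 had median values of 353 tags and 1161 bp, where all peaks had 103 tags and 559 bp. In replicate 2 the medians were 223 tags and 825 bp, where all peaks had 74 tags and 366 bp. Median p-based score was 187 against 104 in replicate 1 and 195 against 97.9 in replicate 2. Median fold, in contrast, was 4.80 against 5.32 in replicate 1 and 4.59 against 5.68 in replicate 2. Of the 8 paired peaks, 7 were in the highest 25% of their list by tags in both replicates, and 7 by length. By fold, 3 were in the highest 25% in replicate 1 (Pgam1, Eno1 and Pdk1) and 1 in replicate 2 (Pgam1). The background for these counts was 25.2% by tags in both lists, 25% by length in both, and 25.2% and 25.1% by fold in replicates 1 and 2. The Aldoa pair was the one below the tag median in each list.

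Against the closer background of shared autosomal peaks outside packed windows, the contrast in median tags and length was smaller. For fold, the gap between medians was wider in replicate 1, and in replicate 2 the medians were close (4.59 and 4.57). In replicate 1 the 778 such peaks had medians of 152 tags, 684 bp and 6.42-fold, and 8 of the 9 interval peaks exceeded the first, 8 the second and 3 the last. In replicate 2 the 791 such peaks had medians of 113 tags, 530 bp and 4.57-fold, with 7, 7 and 5 of the 9 above. By p-based score their medians were 199 in replicate 1 and 118 in replicate 2, with 4 and 5 of the 9 interval peaks above. No test was made of these differences, because the peaks were picked by locus and those of 1 library are not replicates.

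**Figure D3:**
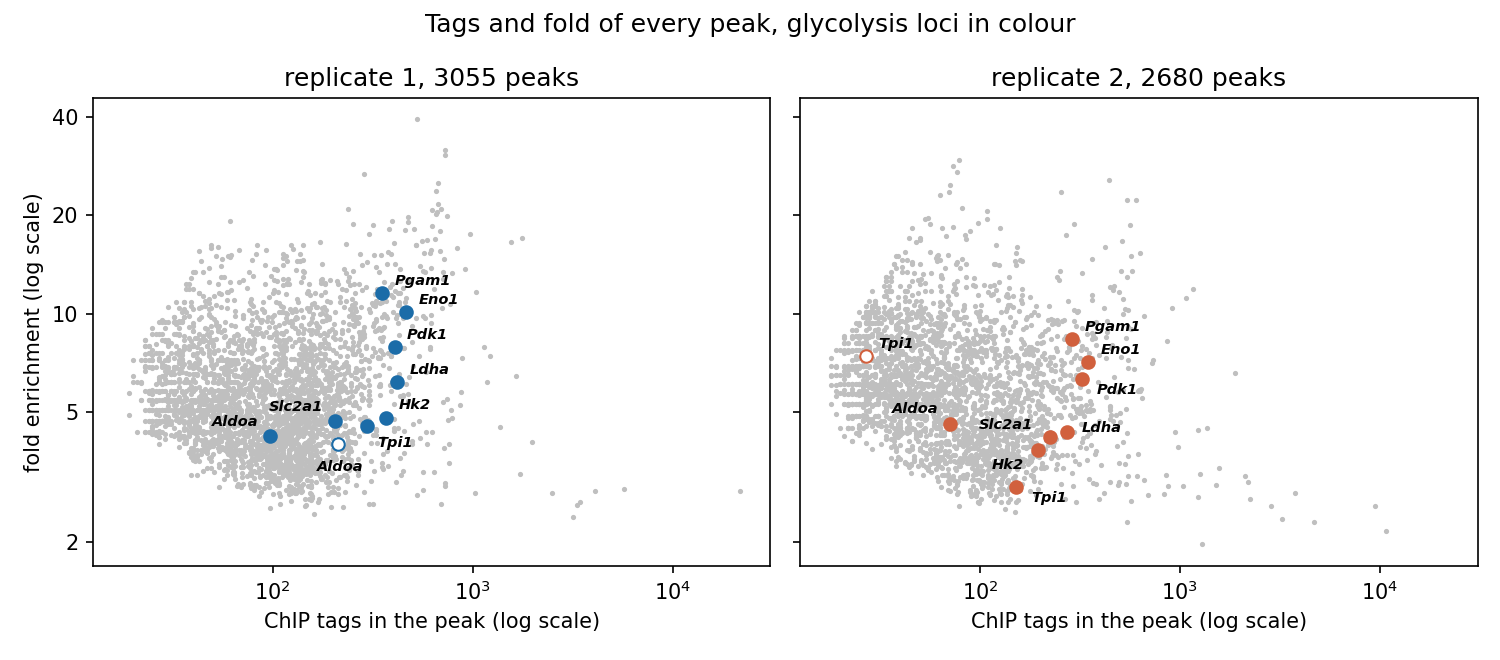
Fold enrichment against ChIP tags, both on log scales, for all 3055 peaks of replicate 1 (left) and 2680 of replicate 2 (right) in grey, with the interval peaks in colour and those in 1 list only as open circles. The coloured points sit towards the right of the cloud, between 2.93-fold and 11.56-fold, and the narrow Tpi1 peak of replicate 2 stands apart at 27 tags.

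Tags per kb over the whole peak, divided by fold, gives a crude quotient that need not equal the local background the caller used. Peak length enters it through the tag density, and no value was taken from the control itself. Whether the local background differed at these loci was not tested. The median was 41.5 tags per kb at the 9 peaks of replicate 1, against 33.3 over all peaks, and 56.2 against 35.9 in replicate 2. In each list 8 of the 9 peaks were above the median of all peaks. The Pgam1 peak of replicate 1 was the exception there, at 26.7 tags per kb, and had the highest fold. In replicate 2 the exception was the narrow Tpi1 peak, at 31.0. The paired Tpi1 peak had the highest value, 79.0, and the lowest fold. Since fold enters the division, this link is in part arithmetic. Shared autosomal peaks outside packed windows had median quotients of 35.7 in replicate 1 and 49.2 in replicate 2. Of the 9 interval peaks, 8 and 6 were above these medians in the respective lists.

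**Figure D4:**
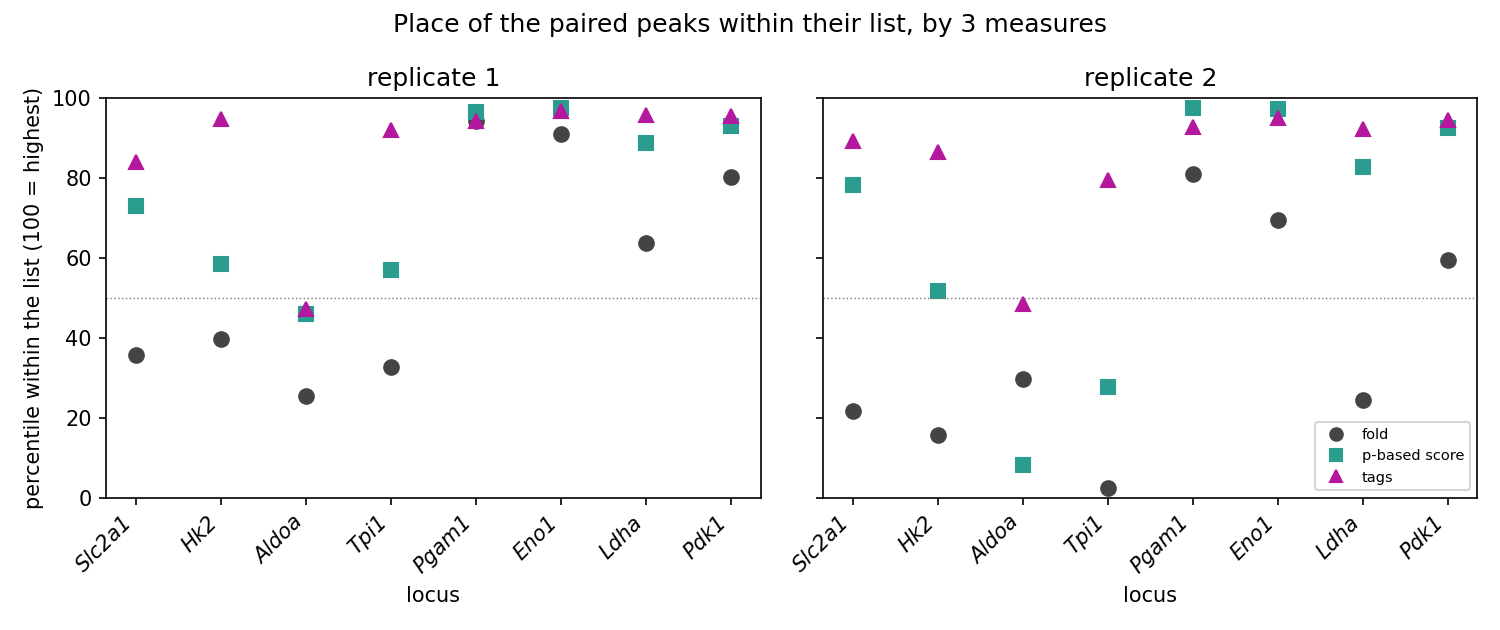
Percentile of the paired peak of each locus within its list (100 is the highest value) by fold, p-based score and tags, for replicate 1 (left) and replicate 2 (right). Tags place 7 of the 8 loci at the 79.5th percentile or higher in both lists, while by fold Tpi1 falls to 2.46 in replicate 2.

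The caller's false discovery rate is given in percent for each peak. In replicate 1 it was 21.05% at Eno1, 22.86% at Pgam1, 24.64% at Pdk1 and 28.53% at Ldha. Slc2a1 followed at 42.34%, the unpaired Aldoa peak at 71.96%, Hk2 at 82.41% and Tpi1 at 91.05%, and the paired Aldoa peak had 100%. In replicate 2 the rates were higher, with 60.95% at Ldha, 62.74% at Slc2a1, 64.65% at Pdk1, 70.67% at Eno1 and 77.27% at Pgam1. Hk2, Aldoa and both Tpi1 peaks stood at 100% there. A rate of 100% was held by 54.3% of the whole list in replicate 1 and 54.7% in replicate 2, where the lowest of all was 58.72%. No peak at these loci had a rate under 21.05%. Among the 8 pairs, those at Hk2, Tpi1 and Aldoa had the highest rates in both replicates.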

How the data were processed

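HIF1A ChIP-seq peaks were analysed for 2 ChIP samples of 1 group, with the input entering only as named in the headers. The authors called peaks per library with MACS in Galaxy against 1 shared control, per the file headers (p-value threshold 1e-05, tag size 25 bp, band width 300 bp). MACS version 1.4.2 and build mm9 come from the submitters' processing notes. For the aligner, nothing was given in the sources at hand. Deposited values per peak are the caller's count of tags, a p-based score (10 times the -log10 p-value), the fold enrichment ratio and a false discovery rate in percent.

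Summits are start plus offset, counted from 1. The intervals, the gene list and the measures were chosen with earlier results of these data known. All 8 genes are named, with every peak in their interval. Peaks overlapping by at least 1 bp were called shared (checked with bedtools 2.31.1), and pairs are mutual best overlaps. Tiles of 100 kb ran from position 1 to the last peak of each chromosome. Python 3.11.15, pandas 2.3.3 and scipy 1.17.1 were used, and the code was tested on simulated peaks. Promoters are RefSeq windows of GRCm38.p6, searched over 250 bases. The other genes of the pathway were not counted, for want of mm9 positions. Alternatives covered interval width, threshold, overlap rule, ranking measure and tile size.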

Additional observations from a re-analysis of the deposited data

How the results depend on the processing

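All 8 loci kept a peak in both lists with intervals narrowed by 10 kb. Widening the intervals by 50 kb, taking any overlap or leaving out replicate 1 or replicate 2 also gave 8, which these settings could not lower. With a p-based score of at least 100 in both lists 6 remained, and with a fold of at least 5 there were 3, with 4 peaks in each list, since fewer peaks were eligible. Pairs numbered 6 with reciprocal overlap of at least 50% of each peak and 8 with summits within 100 bp. The shares of all tiles and of all pairs under these thresholds and overlap rules were not computed, so these counts have no background. The median percentile of the interval peaks depended on the measure: it was 39.7 in replicate 1 and 29.7 in replicate 2 by fold, 72.9 and 78.2 by p-based score, 94.2 and 89.3 by tags, and 48.9 and 43.4 by fold among autosomal peaks outside packed windows. Of the 18 peaks, 16 had a higher percentile by score than by fold, and 17 by tags. How often this held among all peaks of the lists was not computed, so it is not shown to be particular to these loci. The median distance of 41 bp between paired summits became 63 bp between peak centres. The share of tiles with a summit of both lists was 1.84% for 50 kb tiles, 6.3% for 200 kb tiles and 2.85% without packed windows, against 3.39%. No paired analysis was possible because the replicates belong to a single group. Peak lists hold no value for a site that was not called, so at the unpaired Aldoa and Tpi1 peaks the level in the other list is unknown, and what depth limits could not be examined.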
